A study of Homo sapiens with 12 samples.

Results

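The PRDM1 knockout derivative KO2 of RKO cells was compared with wild-type RKO cells (WT) in bulk RNA sequencing of polyadenylated RNA. RKO is an established human colon carcinoma line. KO2 was set against WT by the library titles, which gave 2 libraries per group, or 4 of the 12 libraries of the series, and all 12858 genes with enough counts to be tested were described, of 26364 in the files. KO2 and KO5 are PRDM1 knockouts made with CRISPR/Cas9, GFP denotes RKO cells overexpressing green fluorescent protein, and WT denotes RKO cells with no further change named. KO5 and GFP, with 2 libraries each, serve to show where KO2 stood apart. These groups were all grown in the same medium, and no treatment is given. RKO cells overexpressing PRDM1α or PRDM1β, with 2 libraries each, complete the series, and their levels are given for some genes. All 12 libraries entered the low-count filter and the estimate of spread. The labels give neither the guide RNA nor the edited site, do not call KO2 a clone or a pool, and name no separate cultures behind the replicate libraries, so that p-values measure only the spread between these libraries.

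PRDM1, also called BLIMP1, is a zinc finger transcription factor known mainly as a repressor that shuts down the B cell programme during plasma cell differentiation. It binds DNA through its zinc fingers and recruits corepressors such as histone deacetylases and methyltransferases. In the mouse intestine it is a factor of the fetal epithelium that is lost around weaning. The study asks what PRDM1 does in colon cancer cells, and KO2 against WT addresses which transcripts differ in 1 of its knockout derivatives.

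PRDM1 itself gave 0 and 1 counts in the KO2 libraries, 1 and 1 in KO5, 2 and 6 in GFP, and 4 and 4 in WT. The libraries held few PRDM1 reads in any of these groups. The ratio of KO2 to WT, scaled by gene counts, was 0.145, with a 95% exact binomial interval from 0.00327 to 1.08 that includes 1, so a loss of PRDM1 transcripts relative to WT was not detectable at this depth. Against GFP the ratio was 0.0831 with an interval from 0.00187 to 0.620. These intervals cover counting error only, and the counts say nothing of the edited site.

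Gene counts were 43970008 and 35604471 in the KO2 libraries and 36503307 and 55961821 in the WT libraries, and levels below are CPM, the counts of a gene scaled to the sum of the gene counts of its library. As a check of the label "colon epithelial carcinoma", the keratin genes KRT8 and KRT18 and the intestinal transcription factor gene CDX2 were well counted. CDX2, for example, had 13.4 and 12.8 CPM in KO2 and 14.1 and 15.2 CPM in WT. The epithelial markers EPCAM, CDH1 and KRT19 had 0 counts in all 4 libraries, and CLDN7 and VIL1 had at most 2 counts. Markers of other cell types summed to 9.13 to 9.76 CPM in KO2 and 10.96 to 13.3 CPM in WT for 11 fibroblast genes, of which 5 were at 0 counts in all 4 libraries. For 10 leukocyte genes, 7 of them at 0, the sums were 11.2 to 12.8 CPM in KO2 and 18.3 to 19.3 CPM in WT, and nearly all of it was the lysosomal protein gene CD68. For 6 endothelial genes the sum was at most 0.0455 CPM in each library. In bulk RNA fewer cells of a type and less RNA per cell cannot be told apart.

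KO2 differed from WT in many genes by small amounts and in few genes by large ones, and the large differences were mostly falls. Of the 12858 genes tested, 1939 were higher and 1918 lower in KO2 at an adjusted p under 0.05 (edgeR quasi-likelihood test with Benjamini-Hochberg adjustment), together 30.0% of genes tested, or 15.1% higher and 14.9% lower. Of these calls 88.3% were below 1.5-fold, and the spread between replicate libraries was 2.18% (common biological coefficient of variation). At 2-fold or more, 199 genes fell (1.55% of those tested) and 31 rose (0.241%). The number of calls was 2563 without WT replicate 2, the deepest library, against 3857 with it, while the falls of at least 2-fold numbered between 179 and 191 with any 1 of the 4 libraries left out. The difference followed the GC content of the transcripts little, with a Spearman coefficient of -0.08 over 12520 genes, given as a description. Single libraries carried larger GC trends. The coefficient was 0.22 for KO2 replicate 1 minus replicate 2 and -0.29 for WT replicate 1 minus replicate 2.

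**Figure D1:**
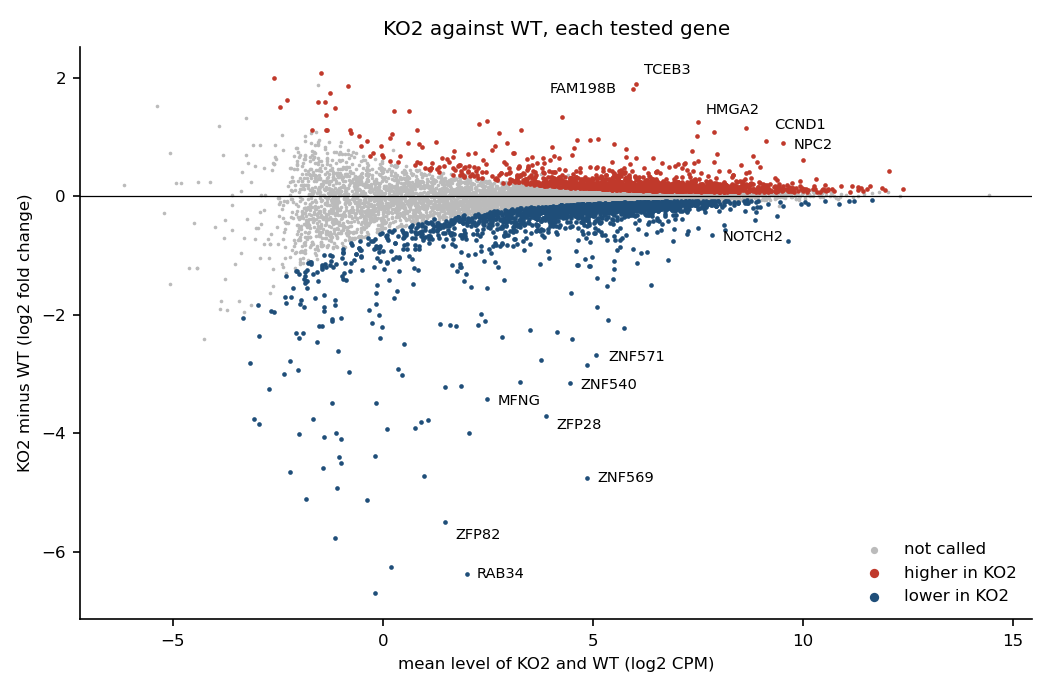
Each point is a tested gene, with its mean level in KO2 and WT in log2 CPM on the x axis and the fitted log2 fold change of KO2 minus WT on the y axis; red and blue mark genes higher and lower in KO2 at an adjusted p under 0.05. The 199 falls of at least 2-fold reach much further from 0 than the 31 rises; 30 genes with 0 counts in 1 of the groups, 13 of them called, and 5 with 0 in both are not drawn.

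The largest rises among genes of at least 5 CPM were led by TCEB3, which encodes elongin A, a subunit of a complex that speeds elongation by RNA polymerase II. TCEB3 had 102 and 102 CPM in KO2, 26.2 and 26.7 CPM in KO5, and 28.0 and 28.3 CPM in WT. KO2 stood alone, with KO5, GFP and WT at nearly the same level. The log2 fold change of KO2 against WT was 1.89 ± 0.05 (SE, n = 2 libraries each, adjusted p = 5.54e-36), and against KO5 it was 1.95 (adjusted p = 2.32e-35). Its neighbours on chromosome 1, RPL11 and PITHD1, were at 0.05 and 0.07 and were not called.

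FAM198B had 94.9 and 95.7 CPM in KO2, 0.666 and 0.735 CPM in KO5, and 27.5 and 28.2 CPM in WT, a log2 fold change of 1.81 ± 0.05 against WT (adjusted p = 1.76e-34). HMGA2, an architectural chromatin protein made in embryonic and tumour cells, had 250 and 253 CPM in KO2 and 108 and 109 CPM in WT (log2 fold change 1.25 ± 0.03, adjusted p = 3.03e-34). IGF2BP3, an RNA-binding protein that is likewise oncofetal, had 316 and 323 CPM in KO2 and 158 and 151 CPM in WT (1.08 ± 0.03, adjusted p = 3.53e-32). Both were thus about doubled in KO2. The leading rises and falls were named only among genes without overlap between the KO2 and WT libraries, so that trait was set by the rule. CCND1, encoding cyclin D1, which drives entry into S phase, had 737 and 708 CPM in KO2 and 388 and 394 CPM in WT (0.92 ± 0.03, adjusted p = 3.14e-30). FAM3C, a secreted protein linked to epithelial-to-mesenchymal transition, had 537 and 555 CPM in KO2 and 260 and 244 CPM in WT (1.15 ± 0.03, adjusted p = 2.44e-32).

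LAMB3, the beta chain of laminin-332 in epithelial basement membranes, had 7.96 and 7.72 CPM in KO2 and 3.21 and 3.41 CPM in WT (log2 fold change 1.27 ± 0.11, adjusted p = 1.27e-13). TNS4, a tensin of focal adhesions, had 240 and 230 CPM in KO2 and 120 and 117 CPM in WT (1.02 ± 0.03, adjusted p = 2.18e-29). In neither of these did the KO2 and WT libraries overlap, which the naming rule required and which held for 64.5% of all tested genes.

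Other leading rises had log2 fold changes between 0.90 and 1.22. BIRC3, an inhibitor of apoptosis and a target of NF-kB, was at 13.6 and 12.8 CPM in KO2 and 6.90 and 5.83 CPM in WT. NPC2, which carries cholesterol out of lysosomes, was at 938 and 961 CPM in KO2 and 535 and 506 CPM in WT. GFPT2, an enzyme of the hexosamine pathway, was at 6.64 and 6.77 CPM in KO2 and 3.10 and 2.86 CPM in WT. Each of these was higher in both KO2 libraries than in either WT library, as the naming rule required. The leading rises also included G0S2, an inhibitor of the triglyceride lipase ATGL, NAV3, a microtubule-binding neuron navigator, and KCNIP3, a calcium-binding protein.

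**Figure D2:**
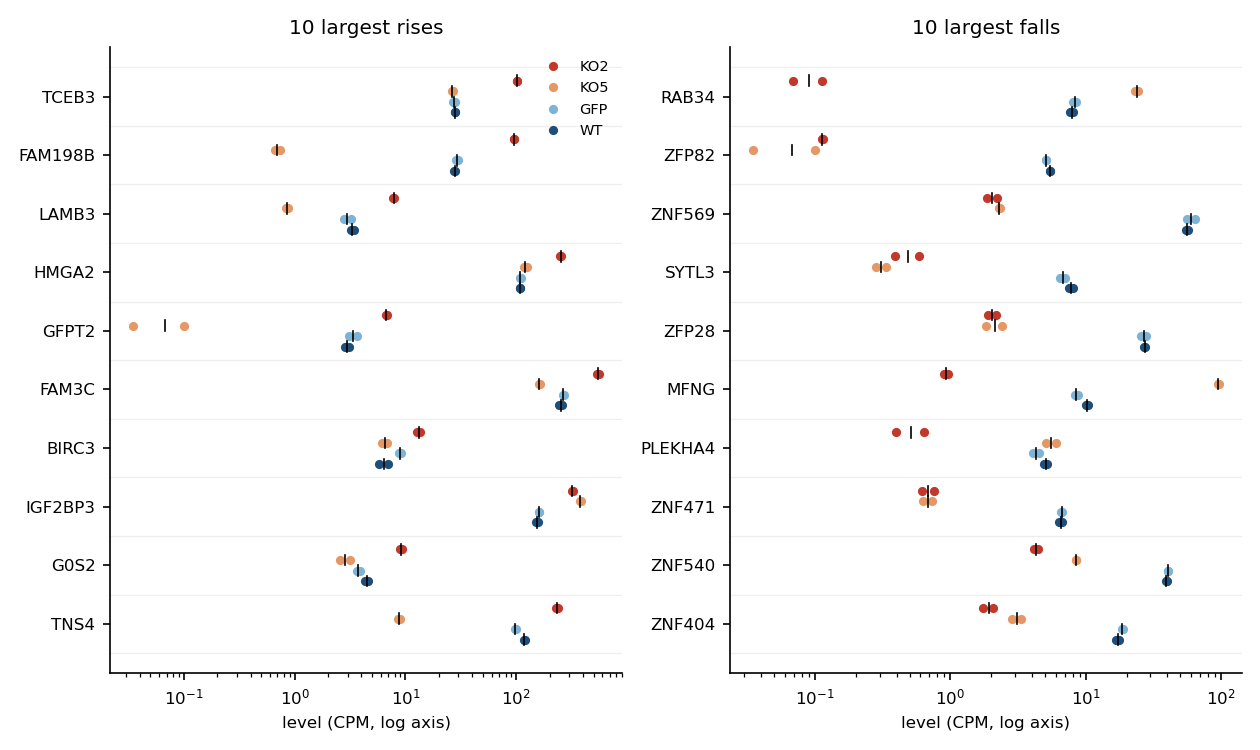
Levels in CPM on a log axis of the 10 genes with the largest rises and the 10 with the largest falls in KO2 against WT, 1 point per library and a black tick at the mean of each group, in the order KO2, KO5, GFP and WT from the top of each row. Genes were taken only from those of at least 5 CPM without overlap between the KO2 and WT libraries. TCEB3 was near 102 CPM in KO2 and between 26.2 and 28.3 CPM in the KO5 and WT libraries, while most of the zinc finger genes among the falls were low in KO5 too.

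Among genes of at least 5 CPM, the largest falls outside the zinc finger family were in genes of unrelated kinds. RAB34, a small GTPase of ciliary vesicles and the Golgi, had 0.0682 and 0.112 CPM in KO2, 24.4 and 23.2 CPM in KO5, and 8.11 and 7.59 CPM in WT, so that it was nearly gone from KO2. The log2 fold change against WT was -6.37 ± 0.55 (adjusted p = 6.87e-27). Its neighbours on chromosome 17, PROCA1 at -0.49 and RPL23A at 0.08, were not called. MFNG, the manic fringe glycosyltransferase that modifies Notch receptors, had 0.955 and 0.899 CPM in KO2, 95.9 and 94.1 CPM in KO5, and 10.1 and 10.4 CPM in WT (-3.42 ± 0.18 against WT, adjusted p = 2.06e-27). CYP24A1, the hydroxylase that inactivates vitamin D, had 5.19 and 6.66 CPM in KO2, 28.5 and 26.7 CPM in KO5, and 30.1 and 28.8 CPM in WT (-2.29 ± 0.08 against WT, adjusted p = 3.00e-28). PLEKHA4, a phosphoinositide-binding protein, had 0.637 and 0.393 CPM in KO2, 6.03 and 5.04 CPM in KO5, and 5.21 and 4.93 CPM in WT (-3.21 ± 0.25 against WT, adjusted p = 1.22e-18).

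In other leading falls KO5 was below WT too. NNMT, which methylates nicotinamide, had 7.14 and 6.82 CPM in KO2, 6.46 and 6.05 CPM in KO5, and 38.5 and 38.1 CPM in WT, a log2 fold change of -2.42 ± 0.08 against WT (adjusted p = 1.78e-32). SYTL3, a Rab effector in vesicle transport, had 0.387 and 0.590 CPM in KO2, 0.333 and 0.280 CPM in KO5, and 7.56 and 8.08 CPM in WT (-3.99 ± 0.25, adjusted p = 8.90e-25). PCLO, the presynaptic scaffold piccolo, had 2.66 and 1.77 CPM in KO2, 1.03 and 0.875 CPM in KO5, and 11.3 and 12.5 CPM in WT (-2.37 ± 0.13, adjusted p = 8.09e-22). Both derivatives were below WT in each of these genes. KO2 did not differ from KO5 at the threshold in NNMT (adjusted p = 0.149) or SYTL3 (adjusted p = 0.171), which does not show that they were equal, and was higher than KO5 in PCLO.

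No gene was detected in KO2 only, defined as at least 1 CPM in both KO2 libraries and at most 0.1 CPM in both WT libraries, and 4 genes were detected in WT only. TFPI, the inhibitor of tissue factor in blood coagulation, had 0 counts in both KO2 libraries, 5.06 and 7.07 CPM in KO5, and 2.00 and 1.98 CPM in WT. By the near end of the 95% exact binomial interval, TFPI was at least 42.5-fold lower in KO2 than in WT and at least 129.6-fold lower than in KO5. SEMA3D, a secreted axon guidance signal, had 2 counts in KO2 and 211 in WT, a ratio of KO2 to WT of 0.0110 (95% exact binomial interval 0.00133 to 0.0403). TINAGL1, a secreted matrix protein, had 1 count in KO2 and 163 in WT, a ratio of 0.00713 (interval 0.000179 to 0.0403). LINC00665, a long non-coding RNA, had 3 counts in KO2 and 138 in WT, a ratio of 0.0253 (interval 0.00515 to 0.0754). All but TFPI had at most 1 count per library in KO5.

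The widest pattern among the falls lay on chromosome 19 and in zinc finger genes. KRAB zinc finger proteins form the largest family of transcription factors in mammals, are encoded in clusters of duplicated genes, many of them on this chromosome, and are known to silence transposable elements through the corepressor TRIM28. Chromosome 19 held 945 tested genes, of which 93 were higher and 212 lower in KO2, or 22.4% lower beside 14.9% of all tested genes. It also held 50 of the 199 falls of at least 2-fold. The median log2 fold change of its genes was -0.04, while the medians of the other chromosomes lay between -0.01 and 0.02. Of 205 tested genes on chromosome 19 with a ZNF symbol, 4 were higher and 83 lower, 30 of them at least 2-fold, and their median was -0.14. The 740 tested genes on chromosome 19 without a ZNF symbol were nearer to all tested genes, with 89 higher and 129 lower (17.4%). Of these falls 20 were at least 2-fold, and the median was -0.03. Of 233 tested ZNF genes on other chromosomes, 16 were higher and 45 lower, 2 of them at least 2-fold, and their median was -0.02. Reads of near-identical copies and of overlapping or antisense genes are uncertain here, since neither the counter nor its strand setting is given in the sources used here.

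Neighbouring genes fell together. A run was defined as at least 4 neighbouring tested genes all called in the same direction and each changed at least 1.5-fold, with gene order taken from RefSeq. There were 8 runs with 49 genes, and 6 of the runs with 40 genes, all lower, were on chromosome 19. Of these 40 genes 36 had zinc finger symbols, counting the antisense transcript ZNF529-AS1 and HKR1. The first of the 6 went from LINC00665 to ZNF529-AS1 (7 genes, median log2 fold change -1.16), the second from ZNF461 to ZNF585A (11 genes, -1.86), the third from ZNF383 to ZNF570 (5 genes, -1.18) and the fourth from ZNF540 to ZNF573 (6 genes, -1.85). These 4 runs are separated only by ZNF382, ZNF585B and ZNF793, which had log2 fold changes of -0.25, -0.47 and -0.60, and of these ZNF585B was called. The other runs went from ZNF283 to ZNF221 (5 genes, -2.10) and from ZNF582 to ZNF71 (6 genes, -2.71).

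ZNF569 had 1.86 and 2.19 CPM in KO2, 2.33 and 2.27 CPM in KO5, and 56.4 and 55.2 CPM in WT, the deepest fall of a gene of this tract above 5 CPM apart from ZFP82. Its log2 fold change against WT was -4.75 ± 0.12 (adjusted p = 9.21e-40). ZFP82 had 0.114 and 0.112 CPM in KO2 and 5.40 and 5.43 CPM in WT (-5.50 ± 0.49, adjusted p = 7.67e-24). ZNF540 had 4.46 and 4.16 CPM in KO2, 8.49 and 8.50 CPM in KO5, and 39.6 and 39.3 CPM in WT (-3.15 ± 0.09 against WT, adjusted p = 2.06e-36). KO2 and KO5 were both far below WT in these genes, and in ZNF540 KO2 was the lower of them (log2 difference -0.97, adjusted p = 9.64e-12). ZNF571 had 9.32 and 8.43 CPM in KO2 and 57.7 and 58.7 CPM in WT (-2.67 ± 0.07, adjusted p = 4.71e-36). ZNF260, in the same tract, fell less, with 70.9 and 68.8 CPM in KO2 and 150 and 151 CPM in WT (-1.07 ± 0.04, adjusted p = 2.27e-29).

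In the run nearest the end of the chromosome, ZFP28 had 1.91 and 2.16 CPM in KO2 and 27.6 and 27.1 CPM in WT (log2 fold change -3.71 ± 0.12, adjusted p = 1.89e-34). ZNF583 had 18.3 and 18.8 CPM in KO2 and 92.5 and 84.8 CPM in WT (-2.22 ± 0.05, adjusted p = 4.02e-36). ZNF71, at the edge of the run, had 18.4 and 18.6 CPM in KO2 and 48.5 and 50.6 CPM in WT (-1.39 ± 0.05, adjusted p = 1.45e-27). In the run with ZNF283, ZNF404 had 1.75 and 2.08 CPM in KO2 and 16.8 and 17.5 CPM in WT (-3.14 ± 0.13, adjusted p = 1.05e-29). A few members rested on few reads. ZNF829 had 3 counts in KO2 and 20 in WT, a ratio of 0.174 (interval 0.0332 to 0.588), and was not called without KO2 replicate 1 (adjusted p = 0.0584) or KO2 replicate 2 (0.0823). ZNF570 had 2 counts in KO2 and 44 in WT, a ratio of 0.0528 (interval 0.00620 to 0.202). ZNF582 was not called without KO2 replicate 1 (adjusted p = 0.0581), and neither was ZNF221 without WT replicate 2 (adjusted p = 0.210).

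Against GFP, where 17.3% of tested genes were lower in KO2, all 40 genes of these runs were lower, the medians of the runs lying between -1.27 and -2.76. Against KO5, where 26.9% of tested genes were lower in KO2, run medians of KO2 minus KO5 lay between -0.48 and -0.01, and of the 40 genes 26 were lower and 2 higher in KO2. Of 174 tested ZNF genes on chromosome 19 outside the runs, 77 were lower and 16 higher in KO2 than in KO5, with a median of -0.16. The difference between KO2 and KO5 also followed GC content (Spearman coefficient 0.41 over all genes with a GC value). KO5 itself was lower than WT in 38 of the 40, with run medians between -0.68 and -2.55, where 51.2% of all tested genes were called in KO5 against WT, 25.2% higher and 25.9% lower, and 0.957% rose and 1.54% fell at least 2-fold. KO2 and KO5 share the WT libraries in these comparisons, so the values are set side by side only.

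The zinc finger genes of the runs on chromosome 19 were also read in RKO cells overexpressing PRDM1α or PRDM1β, the other derivatives of the series, with 2 libraries each. ZNF585A and the antisense transcript ZNF529-AS1 were left out, which gave 34 genes. All 34 of these genes stood higher in both PRDM1α libraries than in both WT libraries, where 32.9% of all tested genes did, with a median log2 ratio of 1.09 to WT. In PRDM1β cells 28 of the 34 did, beside 34.4% of all tested genes, with a median of 0.51. In GFP cells the number was 19, beside 27.7%, with a median of 0.08. The same median was -1.72 in KO2 and -1.35 in KO5. All these ratios share the WT libraries, and the genes were chosen for being low in KO2.

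**Figure D3:**
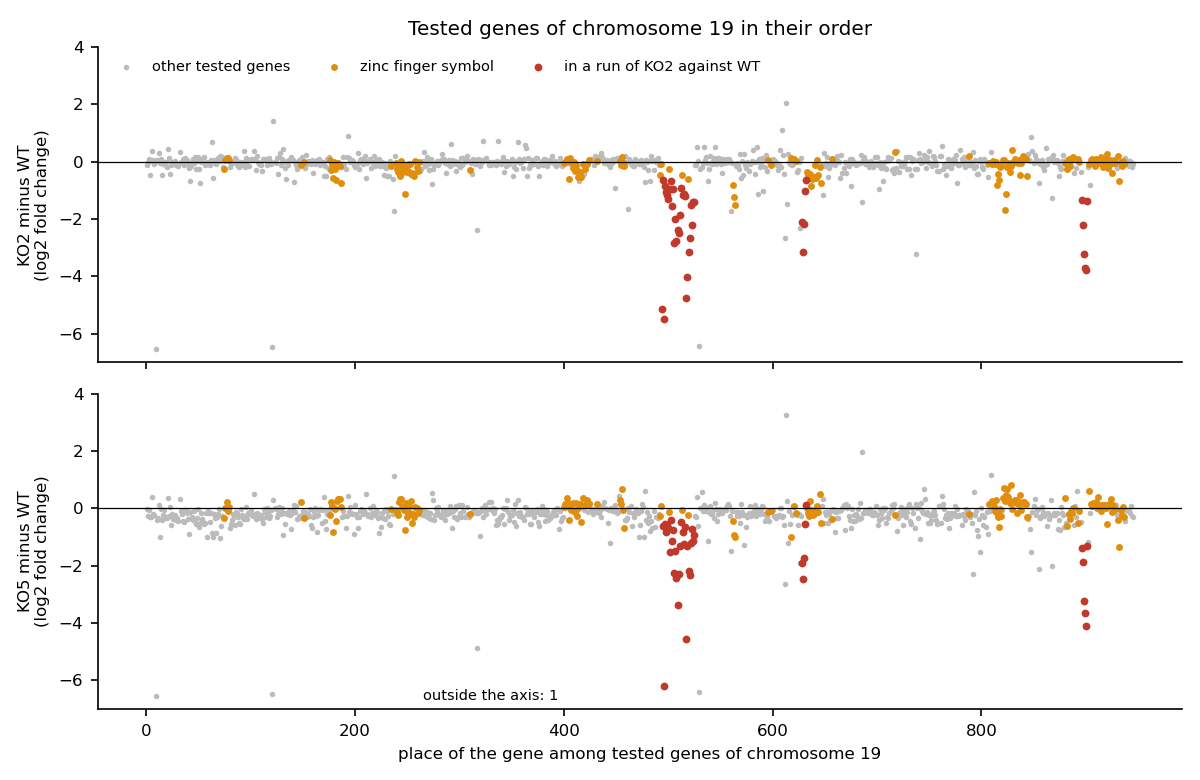
Log2 fold change of each tested gene on chromosome 19 against its place in gene order, for KO2 minus WT (upper panel) and KO5 minus WT (lower panel); orange marks zinc finger symbols and red the 40 genes of the runs in KO2. The red genes form 3 tracts below 0 in both panels, except for ZNF221, at 0.13 in the lower panel. Most other genes lie near 0, and 1 gene of the lower panel is outside the axis.

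Since the genes of these runs moved together, their promoters were read from RefSeq (build GRCh38.p14), as windows of 300 bases from 250 before to 50 after the start of the gene, which 34 of the 40 genes matched. Shown here are the 250 bases before the start of ZNF569 (chr19:37467445-37467694, minus strand) and ZNF345 (chr19:36850626-36850875, plus strand), which held the longer motif and of which ZNF569 fell most, and of ZNF283 (chr19:43827071-43827320, plus strand), ZNF583 (chr19:56403764-56404013, plus strand) and ZNF71 (chr19:56595052-56595301, plus strand), the genes of the runs that held the shorter one. Capitals mark the letters AGNGAAAG, the core of the site that PRDM1 is known to bind, and ACTACANNT, part of the motif known to be bound by ZNF143 and THAP11, each on either strand. Overlapping matches of the shorter motif, as in ZNF583, are marked as 1 stretch, and the 2 motifs do not overlap in these sequences.
ZNF569: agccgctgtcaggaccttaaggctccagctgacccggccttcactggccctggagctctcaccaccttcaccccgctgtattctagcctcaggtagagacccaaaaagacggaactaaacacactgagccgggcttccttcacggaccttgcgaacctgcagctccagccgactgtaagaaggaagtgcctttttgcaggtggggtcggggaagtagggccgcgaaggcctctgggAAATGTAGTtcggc
ZNF345: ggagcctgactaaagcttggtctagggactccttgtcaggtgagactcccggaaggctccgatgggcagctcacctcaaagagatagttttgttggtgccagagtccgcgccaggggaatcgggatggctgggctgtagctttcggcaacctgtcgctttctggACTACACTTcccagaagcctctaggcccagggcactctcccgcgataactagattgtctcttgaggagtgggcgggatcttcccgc
ZNF283: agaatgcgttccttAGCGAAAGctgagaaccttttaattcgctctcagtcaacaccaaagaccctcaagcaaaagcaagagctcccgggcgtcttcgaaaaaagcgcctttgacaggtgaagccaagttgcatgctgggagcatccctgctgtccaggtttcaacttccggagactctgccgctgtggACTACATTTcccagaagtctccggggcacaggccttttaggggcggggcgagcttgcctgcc
ZNF583: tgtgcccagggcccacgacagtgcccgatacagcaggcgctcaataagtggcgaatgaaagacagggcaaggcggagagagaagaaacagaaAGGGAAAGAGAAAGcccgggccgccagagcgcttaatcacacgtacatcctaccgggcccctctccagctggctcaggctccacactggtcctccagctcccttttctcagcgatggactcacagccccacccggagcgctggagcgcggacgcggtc
ZNF71: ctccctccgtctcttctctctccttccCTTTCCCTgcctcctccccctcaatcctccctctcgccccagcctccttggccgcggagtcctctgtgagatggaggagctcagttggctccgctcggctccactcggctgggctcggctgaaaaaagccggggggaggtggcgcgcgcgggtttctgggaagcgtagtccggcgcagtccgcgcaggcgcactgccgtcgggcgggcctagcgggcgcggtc

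The letters AGNGAAAG were in 3 of the 34 promoters of run genes (8.82%), in 6.79% of the 10063 promoters of tested genes and in 7.99% of all 35116 promoters. They were in 10 of the 136 promoters of genes that fell at least 2-fold (7.35%), so the share among the falls was near that of the background. The letters ACTACANNT were in 15 of the 34 (44.1%), in 13.3% of 150 promoters of other ZNF genes on chromosome 19, in 5.46% of tested genes and in 3.58% of all promoters. This spelling was chosen among 7 after these sequences were seen. Of the 34 windows 5 pairs overlap head to head, so that some matches are counted in both genes of a pair, such as ZNF790 and ZNF345. Outside the runs, 534 tested genes held these letters, of which 85 were higher (15.9%) and 66 lower (12.4%), with a median of 0.00. A match is only a description of the window. The run genes had a median of 21.5 CG dinucleotides per window, the other ZNF genes on chromosome 19 had 20.5 and all tested genes 27.

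The other 2 runs were small. On chromosome 7 SEMA3C, PCLO, SEMA3A, SEMA3D and KIAA1324L were lower in KO2, 3 of them secreted semaphorins that guide migrating cells and axons. SEMA3C had 0.796 and 0.899 CPM in KO2, 7.36 and 6.89 CPM in KO5, and 2.38 and 2.47 CPM in WT. SEMA3A had 2.05 and 2.44 CPM in KO2, 0.133 and 0.245 CPM in KO5, and 4.22 and 3.82 CPM in WT. KO2 was thus below WT in both, while KO5 was above WT in SEMA3C and below it in SEMA3A. KIAA1324L was not called without KO2 replicate 1 (adjusted p = 0.0681). On chromosome 11 the run consisted of SNORA8, SNORD5, SNORA18 and MIR1304, small RNAs that lie within another gene, at 0.697 to 3.82 CPM, with log2 fold changes between 0.62 and 0.83. All 4 lost their calls without WT replicate 2 (adjusted p from 0.0583 to 0.248).

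Gene lists of pathways were counted against the 15.1% of tested genes that were higher and the 14.9% that were lower in KO2. Members of the growth and cell cycle lists leaned upward. Of 32 tested genes of MYC and ribosome biogenesis, 20 rose and 3 fell, with a median log2 fold change of 0.13 beside -0.00 over all tested genes. RRP15, needed for the large ribosomal subunit, had 272 and 286 CPM in KO2 and 192 and 190 CPM in WT (0.58 ± 0.03, adjusted p = 2.91e-21). RRS1, a ribosome assembly factor, had 201 and 200 CPM in KO2 and 137 and 142 CPM in WT (0.56 ± 0.03, adjusted p = 9.84e-20). MYC itself had 393 and 404 CPM in KO2, 387 and 378 CPM in KO5, and 347 and 352 CPM in WT (0.22 ± 0.03, adjusted p = 4.67e-08). The genes that fell were MXD4 and MXD1, which encode antagonists of MYC, at -0.37 and -0.30, and CAD, an enzyme of pyrimidine synthesis, at -0.13.

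Of 40 tested G2/M genes 16 rose and 3 fell (median 0.07), and of 34 tested G1/S genes 11 rose and 0 fell (median 0.04). At an unadjusted p under 0.05 the number of G1/S genes that were lower was also 0, and by DESeq2 it was 0. CDC20, the activator of the anaphase-promoting complex, had 358 and 353 CPM in KO2 and 283 and 286 CPM in WT (log2 fold change 0.36 ± 0.03, adjusted p = 1.82e-14). TPX2, a spindle assembly factor, had 422 and 429 CPM in KO2 and 362 and 351 CPM in WT (0.29 ± 0.03, adjusted p = 1.91e-11). Beside cyclin D1, the other changes in the G1/S list were small, DTL at 0.21 and RRM2 at 0.18 among them. MKI67, the proliferation marker Ki-67, was at 0.05 and PLK1, a mitotic kinase, at 0.05, and neither was called. Of 22 tested targets of p53, 9 rose and 3 fell (median 0.07), with CDKN1A, the cell cycle inhibitor p21, at 0.19 and BTG2 at 0.22 among the rises and TP53INP1 at -0.34 and XPC at -0.21 among the falls. Both of those rises are smaller than those of KO5 against WT, 0.54 and 0.51, and KO2 was below KO5 in both (adjusted p = 1.60e-11 and 9.13e-08).

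**Figure D4:**
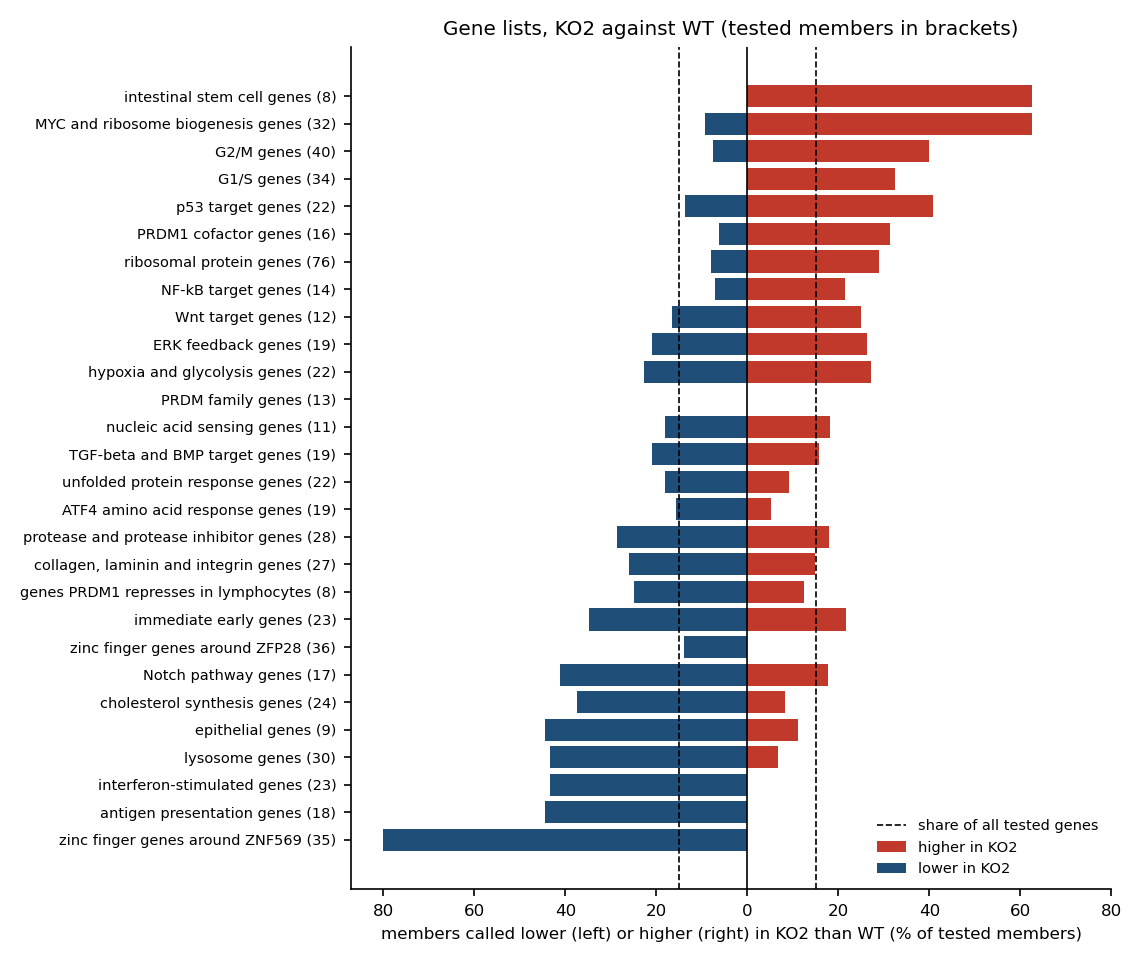
Share of the tested members of each gene list that was called higher (right, red) or lower (left, blue) in KO2 than in WT, in percent, for lists with at least 8 tested members, whose number stands in brackets. The dashed lines mark the shares over all tested genes, 15.1% higher and 14.9% lower. The 35 zinc finger genes around ZNF569, a list that overlaps the runs on chromosome 19, had 80.0% lower. MYC and ribosome biogenesis genes had 62.5% higher.

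The ribosomal protein list gave 22 rises and 6 falls among 76 tested genes (median 0.04), all small. RPS25 had 717 and 734 CPM in KO2 and 615 and 615 CPM in WT (0.27 ± 0.03, adjusted p = 8.82e-11), and RPL13A had 572 and 584 CPM in KO2 and 760 and 730 CPM in WT (-0.33 ± 0.03, adjusted p = 3.38e-13). The rises in this list numbered 8 without KO2 replicate 2 and 14 without WT replicate 2, and the falls 2 or 3 with any 1 library left out. Ribosomal protein genes have many processed pseudogenes, so their counts are uncertain.

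Stem cell and Wnt genes had few tested members. LGR5, the marker of intestinal stem cells, had 0 counts in all KO2 and WT libraries, ASCL2 had 0 and 2 counts in KO2 and 0 and 0 in WT, and EPHB3 had 4 and 3 counts in KO2 and 2 and 1 in WT, too few to be tested. Of 8 tested intestinal stem cell genes 5 rose and 0 fell, 0 also at an unadjusted p under 0.05 and by DESeq2, with 3 rises without KO2 replicate 2. EPHB2, an ephrin receptor of the crypt base, had 70.3 and 68.9 CPM in KO2 and 48.9 and 48.7 CPM in WT (0.55 ± 0.04, adjusted p = 1.24e-15). CDK6 at 0.17 and LRIG1 at 0.19 rose less. Of 12 tested Wnt targets 3 rose, namely CCND1, EPHB2 and MYC, and 2 fell, namely NOTUM, which inactivates Wnt proteins, at -0.42 and AXIN2, the feedback inhibitor of the pathway, at -0.10.

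Members of the interferon and antigen presentation lists leaned downward. Of 23 tested interferon-stimulated genes 10 fell and 0 rose, 0 also at an unadjusted p under 0.05 and by DESeq2, with a median of -0.15. IFITM1, which blocks entry of viruses into cells, had 1.34 and 2.11 CPM in KO2, 8.79 and 9.45 CPM in KO5, and 8.27 and 7.45 CPM in WT, and KO2 was below all others (-2.17 ± 0.16 against WT, adjusted p = 4.55e-17). IRF7, a transcription factor that drives interferon genes, had 1.09 and 0.983 CPM in KO2 and 2.47 and 2.57 CPM in WT (-1.24 ± 0.20, adjusted p = 6.10e-07). MX1, an antiviral GTPase, had 54.2 and 53.4 CPM in KO2 and 65.1 and 65.6 CPM in WT (-0.24 ± 0.04, adjusted p = 4.13e-06). ISG15, at -0.03, and IFIT1, at 0.20, were not called. Of 18 antigen presentation genes 8 fell and 0 rose, with 2 higher at an unadjusted p under 0.05 and 0 by DESeq2, and a median of -0.10. B2M, the light chain of MHC class I, had 458 and 472 CPM in KO2 and 541 and 540 CPM in WT (-0.18 ± 0.03, adjusted p = 4.59e-06). The falls in this list numbered 5 without KO2 replicate 2 and 4 without WT replicate 2.

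Of 30 lysosome genes 13 fell and 2 rose, with a median of -0.09. TPP1, a lysosomal peptidase, had 82.7 and 82.9 CPM in KO2 and 121 and 116 CPM in WT (-0.48 ± 0.04, adjusted p = 6.52e-16). NEU1, a sialidase, had 46.6 and 45.1 CPM in KO2 and 61.6 and 59.2 CPM in WT (-0.36 ± 0.04, adjusted p = 1.71e-09), and PSAP, the precursor of saposins, was at -0.25. CD68, the leukocyte marker and lysosomal membrane protein, was among the falls at -0.60. NPC2 went the other way, as given above. Of 24 tested cholesterol synthesis genes 9 fell and 2 rose (median -0.06), with TM7SF2, a sterol reductase, at -0.66 and SREBF2, the transcription factor of the pathway, at -0.17. The falls in this list numbered 5 without KO2 replicate 1.

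Signalling lists were mixed. Of 17 tested Notch pathway genes 7 fell and 3 rose (median -0.11). Beside MFNG, the receptor gene NOTCH2 had 180 and 169 CPM in KO2, 328 and 334 CPM in KO5, and 282 and 283 CPM in WT (-0.66 ± 0.05 against WT, adjusted p = 1.86e-07), and HEY1, a target of the pathway, was at -0.63. JAG1, a Notch ligand, had 552 and 544 CPM in KO2, 419 and 414 CPM in KO5, and 351 and 352 CPM in WT (0.68 ± 0.03, adjusted p = 7.84e-25). NOTCH2 was thus lower and this ligand higher in KO2, while the receptor gene NOTCH1, at 0.02, was not called. Of 23 tested immediate early genes 8 fell and 5 rose, with the transcription factor gene EGR1 at 41.0 and 38.9 CPM in KO2 and 60.1 and 59.5 CPM in WT (-0.54 ± 0.05, adjusted p = 4.69e-15). KLF2 had 10.8 and 10.6 CPM in KO2 and 5.78 and 7.18 CPM in WT (0.74 ± 0.09, adjusted p = 9.23e-09), and CTGF, a matrix-associated growth factor, had 104 and 102 CPM in KO2 and 68.4 and 67.2 CPM in WT (0.65 ± 0.04, adjusted p = 1.51e-19).

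Of 19 tested ERK feedback genes 5 rose, FOSL1 at 0.55 and PHLDA1 at 0.42 among them, and 4 fell, such as the inhibitor gene SPRY2 at -0.31. Of 19 tested TGF-beta and BMP targets 3 rose and 4 fell. ID2, an inhibitor of differentiation factors, had 3.84 and 2.84 CPM in KO2 and 6.82 and 7.79 CPM in WT (-1.09 ± 0.12, adjusted p = 9.97e-11), and CDKN2B, the cell cycle inhibitor p15, had 9.19 and 10.7 CPM in KO2 and 20.7 and 21.1 CPM in WT (-1.05 ± 0.08, adjusted p = 8.26e-15). Of 14 tested NF-kB targets 3 rose and 1 fell. Beyond BIRC3 the rises were smaller, BCL3 being at 0.31 and NFKB2 at 0.24. BCL3 was not called without KO2 replicate 1 or without either WT library. Of 22 tested hypoxia and glycolysis genes 6 rose and 5 fell, the rises numbering 2 without KO2 replicate 2 or without WT replicate 1. SLC2A3, a glucose transporter, had 394 and 397 CPM in KO2, 1331 and 1298 CPM in KO5, and 524 and 547 CPM in WT (-0.40 ± 0.03 against WT, adjusted p = 2.14e-15).

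Of 28 tested protease and protease inhibitor genes 5 rose and 8 fell. Beside TFPI, PLAT, the tissue plasminogen activator, had 0.318 and 0.477 CPM in KO2 and 1.12 and 1.63 CPM in WT (-1.82 ± 0.32, adjusted p = 2.64e-06). Of 27 tested collagen, laminin and integrin genes 4 rose and 7 fell. LAMB2, a laminin chain, had 69.1 and 66.7 CPM in KO2 and 94.0 and 94.1 CPM in WT (-0.43 ± 0.04, adjusted p = 1.76e-12), the opposite direction to LAMB3. Of 9 tested epithelial genes 1 rose and 4 fell, with KRT7, a keratin of simple epithelia, at 2.00 and 2.27 CPM in KO2 and 5.40 and 4.70 CPM in WT (-1.19 ± 0.15, adjusted p = 7.69e-09); the falls were 2 in number without KO2 replicate 2 or without either WT library. Of 5 tested mesenchymal genes 2 rose and 2 fell. AXL, a receptor tyrosine kinase, had 481 and 462 CPM in KO2 and 358 and 367 CPM in WT (0.41 ± 0.03, adjusted p = 1.99e-15), while ZEB1, a repressor of epithelial genes, had 15.1 and 15.03 CPM in KO2 and 21.6 and 20.03 CPM in WT (-0.42 ± 0.07, adjusted p = 1.31e-06).

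Genes tied to PRDM1 itself changed little. Of 13 tested PRDM family genes 0 were called by edgeR in either direction. PRDM1, with 1 count in KO2 and 8 in WT, was among the 13 only because the low-count filter covered all 6 groups. Its adjusted p of 0.0733 by edgeR thus says little about KO2 against WT. At an unadjusted p under 0.05, 0 of the 13 were higher and 3 lower, and by DESeq2 0 were called. Of 16 PRDM1 cofactor genes 5 rose and 1 fell (median 0.02), with HDAC1 at 0.12, EZH2 at 0.13 and the corepressor gene TLE4 at -0.37, and the rises numbered 3 without either KO2 library or without WT replicate 2. Of 8 tested genes that PRDM1 is known to repress in lymphocytes 1 rose, which was MYC, and 2 fell, STAT6 at -0.20 and ID3 at -0.17. The zinc finger genes around ZNF569 were the list with the most falls, 28 of 35 tested, 19 of them at least 2-fold, with a median of -1.13. Of its members 0 rose, 0 also at an unadjusted p under 0.05 and by DESeq2. The list is set around 1 of the largest falls of this comparison and overlaps the runs above, so its count restates them. Of 36 tested zinc finger genes in the more distal cluster around ZFP28, 5 fell and 0 rose, again 0 at an unadjusted p under 0.05 and by DESeq2, with a median of -0.02.

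The remaining lists lay nearer to the shares of all genes. Of 11 tested nucleic acid sensing genes 2 rose and 2 fell, with the DNA sensor gene MB21D1 at 0.22. Of 22 unfolded protein response genes 2 rose and 4 fell, with the chaperone gene CALR at -0.13, and of 19 tested ATF4 amino acid response genes 1 rose and 3 fell, with CTH, which makes cysteine, at -0.70 and ASNS, asparagine synthetase, at -0.24. PRAME, the only tested gene of the cancer-testis list, was at -0.06 and was not called, and CA2, a carbonic anhydrase of 2 tested intestinal differentiation genes, was at 0.26.

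KO2 was further from KO5 than from WT by number of calls. Against KO5, 3609 genes were higher and 3453 lower in KO2, together 54.9% of those tested (28.1% higher and 26.9% lower), and 177 rose (1.38%) and 264 fell (2.05%) at least 2-fold. This difference followed GC content, with a Spearman coefficient of 0.41 over 12520 genes and medians between -0.12 in the fifth of genes lowest in GC and 0.20 in the fifth highest. With the GC trend of each library removed, 6465 genes were called, and 5148 of the 7062 calls kept their direction and their call. CSPG4, a cell surface proteoglycan, had 8.14 and 8.15 CPM in KO2, 0.0333 and 0.0700 CPM in KO5, and 4.74 and 4.54 CPM in WT. KO5 was nearly without it, and with 3 counts in KO5 the ratio of KO2 to KO5 was 159 (95% exact binomial interval 54.2 to 773). In the opposite direction, PTGES, which makes prostaglandin E2, had 0.136 and 0.140 CPM in KO2, 13.1 and 12.9 CPM in KO5, and 3.56 and 4.04 CPM in WT (log2 difference from KO5 -6.51, adjusted p = 4.42e-29). COL16A1, a fibril-associated collagen, had 2 counts in KO2 and 357 in KO5, a ratio of 0.00413 (interval 0.000498 to 0.0150).

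The genes named as furthest apart between the derivatives lay on opposite sides of WT. Beside FAM198B, RAB34 and MFNG, whose values are given above, TNS4 had 240 and 230 CPM in KO2, 8.59 and 8.99 CPM in KO5, and 120 and 117 CPM in WT. NPC2 had 938 and 961 CPM in KO2, 74.0 and 75.1 CPM in KO5, and 535 and 506 CPM in WT. GFPT2 had 6.64 and 6.77 CPM in KO2, 0.0999 and 0.0350 CPM in KO5, and 3.10 and 2.86 CPM in WT. In all of these KO2 moved one way from WT and KO5 the other, with no overlap among the libraries of KO2, KO5 and WT. The naming rule required no overlap of KO2 with WT and with KO5, so genes with KO2 at the level of WT could not be named this way. SEMA3A, named as a member of a run, had a log2 difference of 3.55 between KO2 and KO5 and was below WT in both.

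**Figure D5:**
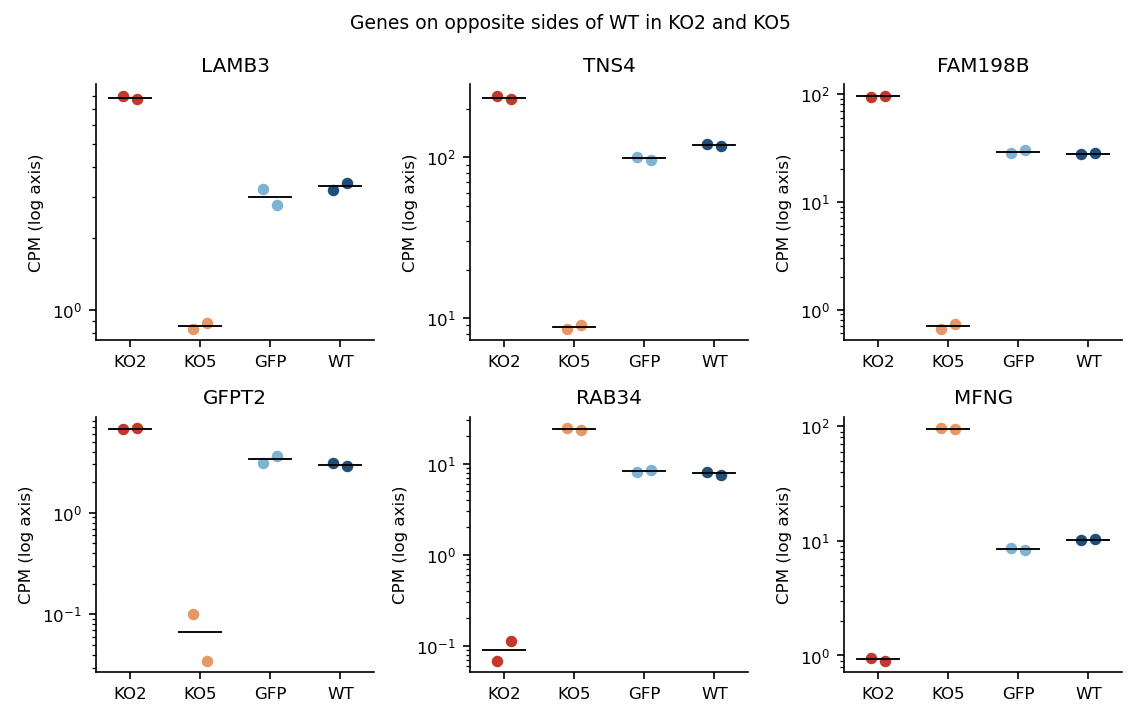
Levels in CPM on log axes of 6 named genes of at least 5 CPM in KO2 or WT, with 1 point per library and a line at the mean of each group. They differed from WT at least 2-fold in KO2 and at least 2-fold the other way in KO5. LAMB3, TNS4, FAM198B and GFPT2 were highest in KO2 and lowest in KO5, and RAB34 and MFNG were lowest in KO2 and highest in KO5, with GFP between them in each.

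Against GFP, 2389 genes were higher and 2225 lower in KO2 (35.9% of those tested, 18.6% higher and 17.3% lower), and 42 rose (0.327%) and 190 fell (1.48%) at least 2-fold. The difference again followed GC content (Spearman coefficient 0.39), and with the GC trend removed 3956 genes were called, among them 3059 of the 4614 with the same direction. Genes in which KO2 was called in the same direction against each of WT, KO5 and GFP numbered 948 higher (7.37% of tested genes) and 913 lower (7.10%). The 3 comparisons share the KO2 libraries, and 17 of these rises and 72 of these falls were at least 2-fold in each. With the GC trend removed the numbers were 1102 and 1063, of which 764 and 793 were among the first. Among genes that met the naming rule, TCEB3, FAM198B, LAMB3, HMGA2 and GFPT2 led those that were highest in KO2. RAB34, MFNG, PLEKHA4, ZNF540 and ZNF404 led those that were lowest, so that 2 of the zinc finger genes that were low in both derivatives were lower still in KO2.

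Among the genes with the most counts the differences were small. PABPC1, the poly(A)-binding protein, had 4809 and 4845 CPM in KO2 and 3754 and 3640.0 CPM in WT (log2 fold change 0.42 ± 0.03, adjusted p = 1.03e-16), and the chaperone gene HSPD1 was at 0.17. TUBB, a beta-tubulin, had 1770.2 and 1748 CPM in KO2 and 1963 and 1972 CPM in WT (-0.12 ± 0.03, adjusted p = 4.96e-04). The other high-count genes named by the same rule, such as GAPDH at 0.10 and RPLP0 at -0.07, differed by less than 0.15, and GAPDH was not called without KO2 replicate 1 (adjusted p = 0.0917), nor RPLP0 without any 1 of the 4 libraries (adjusted p from 0.0571 to 0.307).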

How the data were processed

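Libraries were made with a stranded poly(A) kit, per the labels' protocols. The authors deposited raw counts per gene for each library, and their processing notes name TopHat, Bowtie2, Cufflinks and build hg19. The counter, its strand setting and the versions are not given in the sources used here. The authors' comparison tables were not used. The 2 rows without a gene were left out, which held 9.75 to 10.8% (no feature) and 1.67 to 1.75% (ambiguous) in KO2 and WT. Counts were fitted in R 4.3.3 with edgeR 4.0.16 (filterByExpr, TMM, glmQLFit, glmQLFTest, Benjamini-Hochberg over the 12858 genes that passed), all 12 libraries sharing one estimate of spread. DESeq2 1.42.0 served as an alternative. Depth was 19058967 to 55961821 gene counts, and 0 counts allow up to 0.0843 CPM in KO2 and 0.0822 CPM in WT (3 counts). Replicates of KO2 and WT differed by more than sampling noise.

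GC content came from GENCODE 29 transcripts (97.4% of tested genes matched), gene order from RefSeq (98.3%) and promoters from RefSeq (78.3%). Named genes were PRDM1, MYC, LGR5, ASCL2 and EPHB3, the 15 largest rises and falls at 5 CPM or more without overlap, the 5 largest against KO5 and among genes called against all 3 groups, up to 4 called members of each list, members of runs, genes detected in 1 group and the 5 most abundant called genes each way. Other genes named, among them those not called, were chosen after their values were seen. Members and lists were chosen with earlier results of these data known. The test was checked on simulated counts. A few genes that this rule names are not reported here.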

Additional observations from a re-analysis of the deposited data

Results flagged for a closer look

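Among named genes with a mean of at least 5 CPM in KO2 or WT, KO2 and KO5 stood at least 2-fold from WT on opposite sides in 6. In these the difference between KO2 and KO5 was itself called by edgeR's quasi-likelihood test. Genes that were not named were not counted. The log2 difference of KO2 minus KO5 was 3.20 in LAMB3, 4.75 in TNS4, 7.09 in FAM198B and 6.54 in GFPT2, which were higher in KO2. It was -8.01 in RAB34 and -6.66 in MFNG, which were lower in KO2. Of the named genes below that level, SEMA3C at -3.07 and PTGES at -6.51 met the same description, as did TFPI and COL16A1, which had 0 and 2 counts in KO2. The GFPT2 value rests on 4 counts in KO5, against 533 in KO2, a ratio of 98.1 with a 95% exact binomial interval from 38.1 to 361.5.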

How the results depend on the processing

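KO2 against WT gave 2433 calls by the DESeq2 Wald test and 176 when a change beyond 1.5-fold was required (glmTreat), against 3857, and 2563 to 3150 with 1 library left out. The 1.5-fold requirement gave 441 calls against KO5, 171 against GFP, 280 for KO5 against WT, 128 falls and 16 rises of at least 2-fold, 66 genes called against all 3 groups, 42 calls in the lists and 30 genes in runs, since small changes then fail by construction. By DESeq2 there were 18 rises of at least 2-fold and 1203 genes called against all 3 groups; the cause was not tested. Without a fold minimum runs held 137 genes, against 49, and detection limits of 0.05 and 0.5 CPM gave 7 genes detected in 1 group. The PRDM1 ratio was 0 without KO2 replicate 2 and 0.325 without KO2 replicate 1, on 1 count in all. No named gene that was called changed sign. List medians near 0 did: hypoxia and glycolysis genes were at -0.00687 and, with the GC trend removed, at 0.000467, and nucleic acid sensing genes at -0.00254 and, with DESeq2 size factors, at 0.00133. Lower calls outnumbered higher ones with only KO2 and WT fitted, 1969 to 1909, with a block for replicate number, 1891 to 1890, and without KO2 replicate 2. Of 179 named genes called, 153 stayed called under all alternatives except the 1.5-fold requirement.

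Replicate numbers are shared across groups, but no label pairs the samples, and same-numbered KO2 and WT libraries deviated with a correlation of -0.207, KO2 and GFP with 0.245 and KO2 and KO5 with 0.0634. With the replicate block there were 3781 calls against WT, 7013 against KO5 and 4537 against GFP. A crossed pairing, chosen after seeing the data, gave 5091 calls, against 3878 for the same groups without a block. The GC trend, also removed after seeing the data, gave 4170 calls against WT, and 4134 with the replicate block.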

Other observations

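Genes that were low in KO2 had various levels in the overexpressing cells. ZFP28, a zinc finger gene, had 55.6 and 56.5 CPM in PRDM1α cells, 26.1 and 28.1 CPM in PRDM1β cells, and 27.6 and 27.1 CPM in WT. ZNF569 had 91.2 and 85.5 CPM in PRDM1α cells, 38.4 and 39.3 CPM in PRDM1β cells, and 56.4 and 55.2 CPM in WT. Both genes were thus high in PRDM1α cells, and ZNF569 was below WT in PRDM1β cells. NNMT, which was lower in KO2 than in WT, was low in these cells too, with 9.80 and 10.2 CPM in PRDM1α cells and 4.72 and 5.999 CPM in PRDM1β cells, against 38.5 and 38.1 CPM in WT.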
